A study of Homo sapiens with 15 samples.

Results

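K562 is an established human cell line from chronic myeloid leukemia that carries the BCR-ABL1 fusion and has erythroid features, and PU-H71 is a purine-scaffold inhibitor that binds the ATP pocket in the N-terminal domain of the chaperone HSP90. The comparison described here is between PU-H71 resistant K562 cells (PUHr) and parental K562 cells kept in the solvent DMSO for the same long period, with 3 RNA-seq libraries in each group. Both groups are labelled with the WT genotype. PUHr cells were grown for many months in stepwise rising PU-H71 and picked as clones in methylcellulose, and a parental clone was carried along in DMSO, so that what drug exposure and what the choice of clones brought about cannot be told apart. The study describes the replicates as independent. Whether they came from separate clones is not given in the sources used here, and p-values measure the spread between these libraries. Expression is given as CPM, the reads of a gene scaled by the authors to the size of the library, and is not corrected for gene length. Of 60510 genes with an identifier in the table, 16503 reached a log2 CPM of -1 in 3 or more of the 6 libraries and were tested, and 12275 of them had a mean log2 CPM of 1 or more, about 2 CPM, and are called well measured below.

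HSP90 folds and holds many signalling proteins, its clients, among them kinases, steroid receptors and telomerase. When HSP90 is inhibited, heat shock factor HSF1 is released and the chaperone genes are induced, and clients are degraded. Cells that live with such a drug can carry changes in the chaperone itself, in drug export or metabolism, or in the signalling paths that the clients served. The lists used below follow these themes and the blood lineage programmes of K562.

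The libraries held between 21584840 and 24477692 reads on genes. Replicates correlated at r of 0.995 to 0.996 over all tested genes, and libraries of different groups at 0.956 to 0.957. PUHr replicate 2 stood apart from the other PUHr libraries, with 3.86 and 2.98 times the variance that counting alone gives against replicates 1 and 3, where parental pairs had 1.22 to 1.28. Mitochondrial reads made up 8.67% to 8.95% of PUHr libraries and 9.47% to 9.54% of parental libraries. Markers of the line were measured in both groups. Of 8 well measured markers, among them GATA1, TAL1, HBZ, HBG1, KLF1 and TFRC, 0 passed the fold rule explained below, but 5 were lower and 2 higher at the adjusted p, with a median log2 fold change of -0.30. HBG1 went from a range of 315 to 337 CPM to one of 157 to 179 CPM, while HBE1 was near 0 in both groups. Markers of T cells, B cells, monocytes, fibroblasts and endothelium were mostly near 0 in both groups, with MS4A1, MS4A7, LUM and CDH5 at 0 reads in all 6 libraries. Summed levels were 10.6 to 10.8 CPM in parental and 7.90 to 8.59 CPM in PUHr libraries for the 3 tested of 7 T cell markers, and 9.80 to 10.1 and 5.42 to 5.96 CPM for the 3 tested of 6 fibroblast markers. LYZ, the tested monocyte marker, is given below. The 2 tested of 6 endothelial markers, KDR and VWF, were both higher, with sums of 0.23 to 0.38 and 2.85 to 2.93 CPM, and the 4 tested of 6 epithelial markers went from 845 to 877 CPM to 1214 to 1254 CPM. Their part in the results below was not tested.

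A gene was called changed when its adjusted p was under 0.05 in limma, a linear model with a spread shared across genes, and its log2 fold change was above 1 or below -1. Of all tested genes 886 were changed to higher (5.37%) and 774 to lower (4.69%) in PUHr. Among the well measured genes the counts were 422 higher (3.44%) and 329 lower (2.68%), and the libraries of the groups did not overlap for 750 of these 751. Without PUHr replicate 2 the well measured counts were 411 higher and 342 lower. With no demand on the fold, 3425 well measured genes were higher (27.9%) and 3625 lower (29.5%) at the adjusted p, so that 6299 genes passed the test with a change of 2-fold or less. The median log2 fold change of well measured genes was -0.0045 and the median size of the change 0.17. Most changed genes were of low or middle level. Of the 751, 45 reached 100 CPM in a group and 3 reached 500 CPM. The 909 changed genes below the well measured level, 464 higher and 445 lower, rest on few reads.

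**Figure D1:**
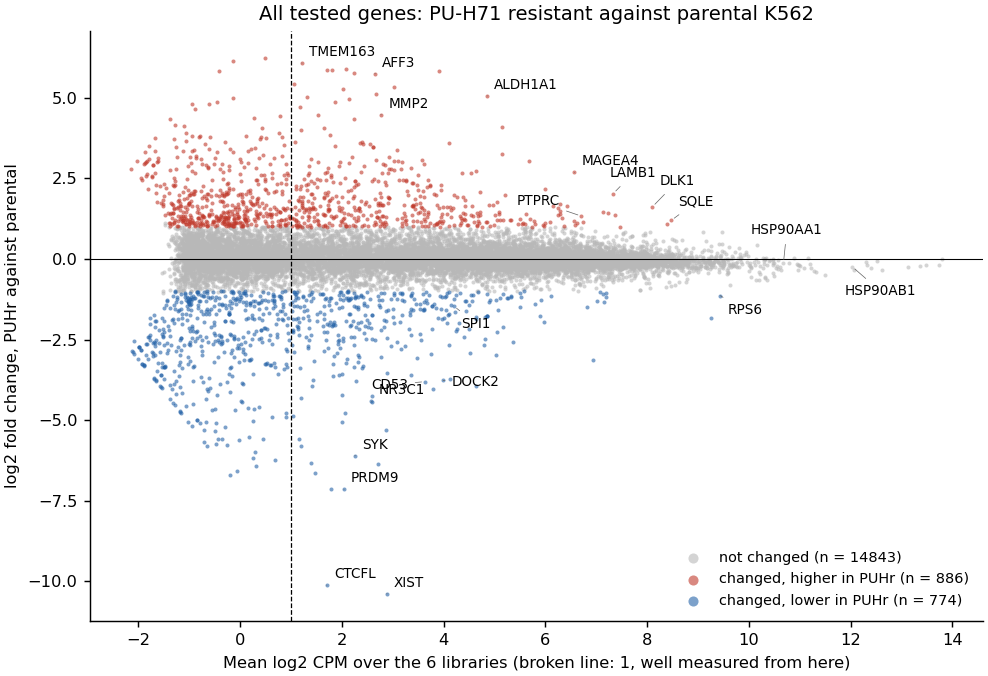
Log2 fold change of PUHr against parental cells (y axis) by mean log2 CPM over the 6 libraries (x axis) for the 16503 tested genes, 1 point a gene. The 886 genes changed to higher and 774 changed to lower thin out toward high expression, and HSP90AA1 and HSP90AB1, at the far right, lie near 0.

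The target of the drug and its helpers changed little. Whether PUHr cells were in PU-H71 when RNA was taken is not given in the sources used here, so that these values cannot be read as the response or lack of response to the drug. HSP90AA1, which encodes the inducible HSP90α (ENSG00000080824, chromosome 14, 102080742 to 102139699, minus strand, GRCh38), had a mean of 1712 CPM (SD 14, n = 3) in parental and 1568 CPM (SD 21, n = 3) in PUHr libraries. All PUHr libraries were below all parental libraries, with a log2 fold change of -0.13 (SE 0.02, adjusted p = 4.7e-05 in limma). HSP90AB1, for the constitutive HSP90β, went from 4531 to 3847 CPM with a log2 fold change of -0.24 (adjusted p = 1.9e-07). Under quantile normalization both differences turned to higher in PUHr, at 0.081 for HSP90AA1 and 0.047 for HSP90AB1. Of 22 HSP90 chaperones and co-chaperones, all well measured, 0 were changed by the fold rule, 9 were lower and 1 higher at the adjusted p in limma, and their log2 fold changes ran from -0.29 to 0.33. Over all well measured genes 29.5% were lower and 27.9% higher at the adjusted p, and the heat shock counts that follow are close to these shares. The heat shock list, which holds the HSP70, HSP40 and small heat shock proteins and the factors, had 21 well measured members, 0 of them changed, 6 lower and 5 higher at the adjusted p, with a median of 0.01. HSPA8, the constitutive HSP70, was lower within 2-fold, at 2846 CPM in parental and 2177 CPM in PUHr libraries (log2 fold change -0.39, SE 0.02). Across the processing choices tried its log2 fold change ran from -0.40 to -0.14. DNAJB1, an HSP40 that HSF1 induces, was at 105 CPM in parental and 114 CPM in PUHr libraries (log2 fold change 0.12). HSPA1A did not pass the filter on low values and was not tested. It has a near-identical copy, HSPA1B, so that its level cannot be read from these values.

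Among 29 well measured transcripts of HSP90 clients 3 fell and 0 rose beyond 2-fold, which is 10.3% lower beside 2.68% of all well measured genes. NR3C1, the glucocorticoid receptor and a classical client, was at 28.4, 27.2 and 26.7 CPM in the parental and at 1.08, 1.30 and 1.25 CPM in the PUHr libraries. The groups were far apart, with a log2 fold change of -4.41 (SE 0.10, adjusted p = 1.2e-13). CDK6, a cell cycle kinase of blood cells, fell from 203 to 95.6 CPM (log2 fold change -1.09), and TERT, the catalytic part of telomerase, from 22.5 to 10.2 CPM (-1.14). SRC, at 2.91 CPM in parental and 0.83 CPM in PUHr libraries, fell with a log2 fold change of -1.71 at a low level. AKT1 (-0.22), CDK7 (-0.21), BCR (0.11) and ABL1 (0.08) passed the adjusted p with small values, and the STAT5A transcript gave -0.03 (adjusted p = 0.51). The median of the client list was 0.02. Of 31 well measured members of BCR-ABL1, SRC and STAT signalling 0 were changed.

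Leukocyte receptors and signalling proteins had many members that were lower in PUHr. Of 43 well measured members 16 fell and 3 rose beyond 2-fold, which is 37.2% and 6.98% beside the 2.68% and 3.44% over all well measured genes, and the median log2 fold change was -0.47. At the adjusted p alone 28 were lower and 9 higher, and without PUHr replicate 2 the fold rule again gave 16 and 3. By role, 5 of 13 signalling molecules, 5 of 14 surface proteins, 3 of 9 cytokine receptors and 2 of 4 integrins fell. SYK, the tyrosine kinase that couples immune receptors to their downstream path (ENSG00000165025, chromosome 9, 90801787 to 90898549, plus strand, GRCh38), was at 40.2, 39.9 and 38.5 CPM in parental and 0.522, 0.502 and 0.445 CPM in PUHr libraries. That is 13, 12 and 10 reads in PUHr against 821 to 951 in parental libraries, with a log2 fold change of -6.11 (SE 0.11, adjusted p = 1.0e-14). VAV1, an exchange factor for small GTPases that SYK-type kinases phosphorylate, was at 39.3, 37.6 and 35.3 CPM against 4.66, 4.60 and 5.12 CPM (log2 fold change -2.94, SE 0.07). PLCG2, the phospholipase of the same path, was at 18.9, 20.3 and 19.0 CPM against 2.25, 2.47 and 2.18 CPM (log2 fold change -3.03, SE 0.09). For all 3 the highest PUHr library was well below the lowest parental library.

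Others of this block lie at the membrane or in the cytoskeleton. CD53, a tetraspanin of leukocytes, was at 44.9, 47.0 and 47.2 CPM in parental and 3.90, 2.97 and 2.94 CPM in PUHr libraries (log2 fold change -3.80, SE 0.10). DOCK2, a Rac activator used in leukocyte migration, was at 58.1, 56.9 and 60.6 CPM against 4.02, 4.06 and 4.58 CPM (log2 fold change -3.77, SE 0.07). IL2RG, the common gamma chain of several cytokine receptors, WAS, which drives actin branching in blood cells, and SLAMF6, a self-binding receptor, had log2 fold changes of -2.52, -2.50 and -2.43. Outside the list, the largest falls included 2 further genes of leukocyte signalling, PTPN7, a phosphatase that acts on MAP kinases (log2 fold change -5.31, 45.8 to 1.08 CPM), and STAP1, an adaptor protein (log2 fold change -5.04, 22.8 to 0.61 CPM). The rule that named genes by fold picked both. The block was not uniform. PTPRC, the phosphatase CD45, rose from 65.6, 65.6 and 66.1 CPM to 168, 164 and 164 CPM (log2 fold change 1.33, SE 0.03, adjusted p = 4.5e-14), CD52 rose with 1.32 and IL1R1 with 1.67. LCP1 (-0.28) and PRKCB (0.07), the members with the highest CPM, were little changed. Less RNA in every cell and fewer cells with the RNA cannot be told apart in bulk libraries.

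SPI1 encodes PU.1, an ETS family factor that binds purine-rich boxes at genes of myeloid cells and B cells. It was at 29.5, 32.0 and 29.5 CPM in parental and a mean of 11 CPM in PUHr libraries, where all 3 were below the parental ones, with a log2 fold change of -1.46 (SE 0.06, adjusted p = 4.5e-11). Of 8 well measured granulocyte and monocyte genes 3 fell, MS4A3 (-1.90), SPI1 and CEBPD (-1.17), and 2 rose, ANPEP and KLF4 (1.05). The call of CEBPD was lost without PUHr replicate 1 (-0.88) and without the intensity trend (adjusted p = 0.057 in limma), which leaves 2 that fell. The median of these 8 was -0.080, and the shares of 37.5% lower and 25% higher stand beside 2.68% and 3.44% of all well measured genes. With the low members counted in, 9 of 15 tested fell and 2 rose, and the median was -1.46, beside 4.69% and 5.37% called over all tested genes. The summed level of the tested members was 118 to 122 CPM in parental and 61.9 to 72.0 CPM in PUHr libraries. LYZ, a lysozyme and a monocyte marker, was lower without passing the fold rule (29.3 to 24.1 CPM), and CD14 was below 1 CPM in every library.

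Since a factor that binds purine-rich boxes and these leukocyte genes were both lower, the 250 bases upstream of the RefSeq start (GRCh38.p14) of the 5 well measured members of the leukocyte list with the largest falls are shown, 5′ to 3′ on the strand of the gene. Capitals mark GAGGAA, the core of the purine-rich box, or its reverse complement TTCCTC, which were searched on both strands. The windows of DOCK2 and VAV1 held it, and those of SYK, CD53 and PLCG2 did not.
SYK (chr9:90801350-90801599, plus strand): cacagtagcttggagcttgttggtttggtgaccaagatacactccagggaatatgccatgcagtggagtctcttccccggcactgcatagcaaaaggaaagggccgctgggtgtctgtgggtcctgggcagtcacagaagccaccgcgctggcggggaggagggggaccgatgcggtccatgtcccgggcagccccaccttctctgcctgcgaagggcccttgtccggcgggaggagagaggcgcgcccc
CD53 (chr1:110870960-110871209, plus strand): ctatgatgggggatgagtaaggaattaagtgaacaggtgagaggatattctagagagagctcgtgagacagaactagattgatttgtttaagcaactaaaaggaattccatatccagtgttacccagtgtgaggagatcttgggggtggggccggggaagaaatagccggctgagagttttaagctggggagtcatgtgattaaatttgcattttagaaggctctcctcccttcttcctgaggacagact
DOCK2 (chr5:169637025-169637274, plus strand): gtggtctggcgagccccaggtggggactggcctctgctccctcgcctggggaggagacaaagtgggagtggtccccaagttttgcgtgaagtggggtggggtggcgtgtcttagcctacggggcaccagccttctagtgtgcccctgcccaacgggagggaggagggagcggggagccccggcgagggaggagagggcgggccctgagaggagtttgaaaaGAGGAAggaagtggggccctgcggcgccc
PLCG2 (chr16:81738791-81739040, plus strand): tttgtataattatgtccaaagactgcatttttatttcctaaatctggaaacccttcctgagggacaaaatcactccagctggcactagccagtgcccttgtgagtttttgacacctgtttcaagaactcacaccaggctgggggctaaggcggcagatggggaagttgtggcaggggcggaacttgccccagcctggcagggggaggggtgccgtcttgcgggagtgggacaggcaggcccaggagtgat
VAV1 (chr19:6772458-6772707, plus strand): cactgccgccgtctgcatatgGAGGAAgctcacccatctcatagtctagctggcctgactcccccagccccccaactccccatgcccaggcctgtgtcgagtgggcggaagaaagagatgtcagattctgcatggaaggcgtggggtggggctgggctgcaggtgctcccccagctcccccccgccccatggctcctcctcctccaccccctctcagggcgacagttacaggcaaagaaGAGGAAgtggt

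Of 16 fallen leukocyte genes 12 had a promoter sequence, and 8 of these held the motif in the window. The share was 66.7%, beside 60% of the 35 well measured list members with a sequence. It was 22.7% of 9369 well measured genes, 27.4% of 219 fallen and 26.9% of 308 risen well measured genes. Of all 34943 promoter windows of this length it was 23.6%. The 12 fallen genes are part of the 35 list members and are few, so that their share cannot be set against that of the list. The fallen leukocyte genes were also poor in CG dinucleotides, with a median of 4 in the window, as in the whole list, where all well measured genes had 21, the fallen 15 and the risen 19. These shares describe letters in the window only. The RefSeq starts of SYK, PLCG2, CD53 and DOCK2 differ from the gene starts of the GENCODE annotation, and 1 RefSeq start was used for each gene. The difference is largest for PLCG2, whose window ends at 81739040 while the GENCODE gene starts at 81779279. Its window therefore does not describe the sequence next to that start. For SYK the window ends at 90801599 and the GENCODE gene starts at 90801787.

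**Figure D2:**
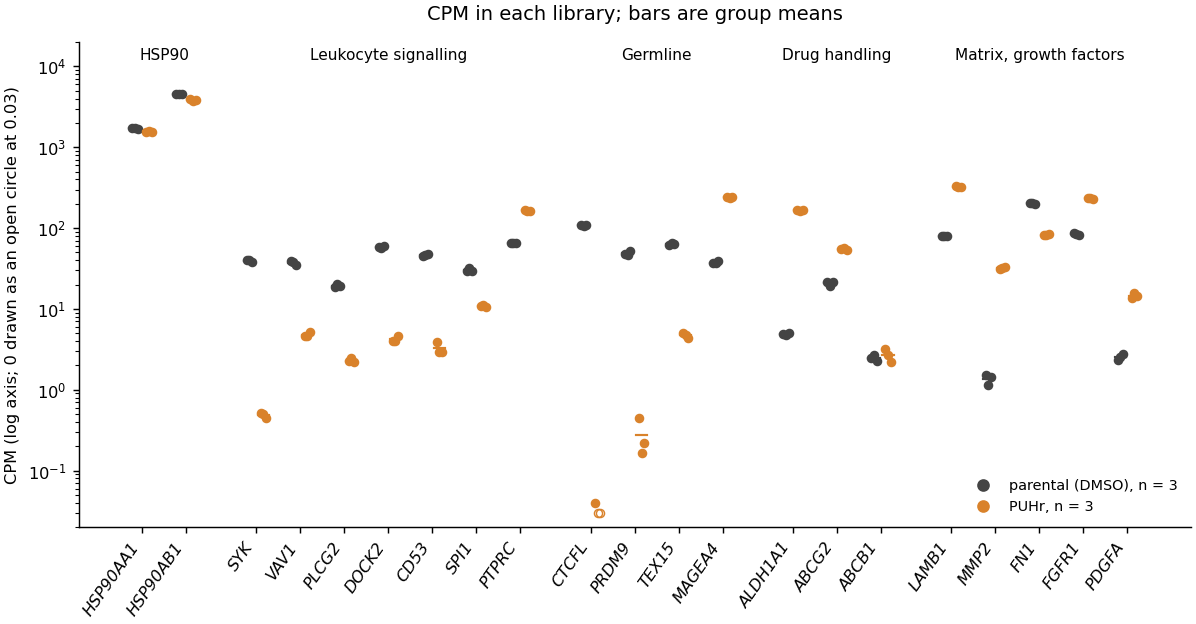
CPM of 21 named genes in each of the 3 parental and 3 PUHr libraries, on a log axis, with a bar at each group mean where it is above the lower edge. Parental and PUHr points are separate for every gene drawn except ABCB1, and CTCFL has 1 PUHr library with a read and 2 at 0.

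Genes normally kept to the germline or testis held several of the largest falls. Of 20 well measured members of the list 7 fell and 1 rose, 35% and 5% beside 2.68% and 3.44% of all well measured genes, with a median of -0.56. Without PUHr replicate 2, 7 fell and 2 rose. CTCFL, the testis paralog of the insulator protein CTCF, was at 110, 106 and 109 CPM in parental libraries, 7461 reads in all, and had 1 read in the 3 PUHr libraries together. The ratio of the groups was 7729, with an exact 95% counting interval of 1387 to 305300, and the fitted log2 fold change was -10.12. PRDM9, the methyltransferase that places meiotic recombination, was at 47.8, 46.9 and 51.6 CPM against 0.442, 0.167 and 0.222 CPM (log2 fold change -7.14, adjusted p = 1.1e-12). SAGE1, a cancer-testis antigen on the X chromosome, was at 42.4, 40.6 and 39.4 CPM against 0.120, 0.293 and 0.222 CPM (log2 fold change -7.14). TEX15 (63.7 to 4.71 CPM, -3.74) and STAG3, a meiotic cohesin subunit (99.3 to 16.8 CPM, -2.56), also fell, as did MAGEA8 (-1.78) and MAGEC1 (-1.17). MAGEA4, another X-linked antigen, went the other way, from 36.6, 37.1 and 38.6 CPM to 245, 237 and 240 CPM (log2 fold change 2.68, SE 0.03). PRAME stood at 471 and 477 CPM (log2 fold change 0.02, adjusted p = 0.66). Germline genes are often held silent by DNA methylation, and of 12 well measured DNA methylation enzymes 0 were changed by the fold rule, with DNMT1 at -0.04 and DNMT3B at -0.31.

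XIST, the RNA that silences an X chromosome, fell to a few reads a library, and its order against CTCFL is not given because fitted values at so few reads depend on the prior count. It was at 271, 273 and 266 CPM in parental and 0.040, 0.209 and 0.133 CPM in PUHr libraries, or 1, 5 and 3 reads (log2 fold change -10.39, SE 0.21, adjusted p = 2.9e-14). Beside these, PRDM9, SAGE1 and SYK, the falls named by fold were NFATC4, a transcription factor (-6.63), the long noncoding RNA LINC00958 (-6.36), SLC4A7, a sodium bicarbonate transporter (-6.33), PLA2G4A, a phospholipase that frees arachidonic acid (-5.81), and the noncoding LINC01287 (-5.58). Several of the largest rises came from genes below 1 CPM in parental cells. TMEM163, a zinc transporter, was at 0.211, 0.336 and 0.094 CPM in parental and 19.2, 19.2 and 18.3 CPM in PUHr libraries (log2 fold change 6.07, SE 0.24). GNAO1, a G protein alpha subunit that is abundant in brain, went from 0.55 to 34.9 CPM (5.78), AFF3, a nuclear protein of the super elongation complex family, from 0.79 to 45.8 CPM (5.74), and MAPK4, an atypical MAP kinase, from 0.39 to 26.7 CPM (5.86). The noncoding RNA LINC01203 (1.90 to 114 CPM, 5.85), ATXN3L (5.42), IGSF10 (5.35), ESAM, an adhesion molecule of endothelial junctions (5.12), MAF, a transcription factor (5.03), and PWWP3B (4.97) were among the 12 named by fold, as were DPYSL5 and ALDH1A1, which are described with their groups. Of well measured genes 43 rose and 46 fell more than 8-fold on the log2 scale of the fit.

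Aldehyde dehydrogenases and transporters moved gene by gene. ALDH1A1, which oxidises retinal and other aldehydes and marks stem-like cells in many tissues, was at 4.95, 4.78 and 5.07 CPM in parental and at 169, 164 and 168 CPM in PUHr libraries. The groups were far apart, with a log2 fold change of 5.06 (SE 0.05, adjusted p = 1.2e-17). ALDH3A2, which oxidises fatty aldehydes, rose from 1.74 to 6.68 CPM (1.90), while ALDH1L2 (-2.77) and ALDH4A1 (-1.36), both mitochondrial, fell, and the median over 11 well measured members was -0.12. Among 21 well measured ABC transporters 1 rose and 1 fell, 4.76% each and near the 3.44% and 2.68% of all well measured genes. ABCG2, a drug exporter, was at 21.5, 19.4 and 21.4 CPM against 54.7, 56.4 and 54.2 CPM (log2 fold change 1.40, SE 0.05, adjusted p = 9.6e-12). ABCA3, a lipid transporter, fell from 28.4 to 11.8 CPM (-1.26). ABCB1, the P-glycoprotein exporter, overlapped between the groups, at 2.45, 2.68 and 2.30 CPM against 3.17, 2.68 and 2.22 CPM (log2 fold change 0.10, SE 0.16, adjusted p = 0.62), a level at which small differences could not be seen. Of the metabolising enzymes CYP1A1, a target of the aryl hydrocarbon receptor, rose (1.94), and the sulfotransferases SULT1A1 (-1.86) and SULT1A2 (-1.01) fell. SULT1A2 missed the fold rule without parental replicate 1 (-0.96), PUHr replicate 1 (-0.849) or PUHr replicate 2 (-0.99). Both sulfotransferases have near-identical copies that can share reads.

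Among well measured genes, growth factors, their receptors and matrix genes were mostly higher. Of 30 well measured receptor tyrosine kinases and ligands 6 rose and 3 fell (20% and 10%, median 0.51), beside 3.44% and 2.68% of all well measured genes. At the adjusted p 19 were higher and 7 lower, where 27.9% and 29.5% of all well measured genes were. Among receptors, FGFR1 went from 86.4, 85.0 and 82.5 CPM to 234, 237 and 231 CPM (log2 fold change 1.47, SE 0.03), INSR, the insulin receptor, rose at a low level (1.23 to 5.22 CPM, 2.03), and MST1R fell (-1.53). Among ligands, PDGFA was at 2.32, 2.56 and 2.77 CPM against 13.7, 15.6 and 14.4 CPM (log2 fold change 2.48, SE 0.10). FGF2, a ligand of FGFR1, rose from 19.9 to 51.8 CPM (1.37), and CSF1 (1.08) and FGF17 (1.38) rose as well, while AREG (-2.09) and PDGFC (-1.69) fell.

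Of 42 well measured matrix and adhesion genes 8 rose and 5 fell (19% and 11.9%, median 0.43), beside 3.44% and 2.68% of all well measured genes. Over all 68 tested members 13 rose and 12 fell, beside 5.37% and 4.69% of all tested genes. Among collagens and laminins 4 of 18 well measured members rose and 0 fell, while over all 31 tested members 7 rose and 5 fell. The 5 were of low level, among them COL1A2 with 137, 124 and 116 reads in parental and 1, 5 and 5 reads in PUHr libraries. LAMB1, a laminin chain of basement membranes, was at 79.4, 80.3 and 79.5 CPM against 331, 321 and 325 CPM, with a log2 fold change of 2.03 (SE 0.03, adjusted p = 1.6e-16). LAMA3 (2.58 to 19.7 CPM, 2.90) and COL21A1 (5.79 to 27.5 CPM, 2.23) rose with it. MMP2, a gelatin-cleaving protease, went from 1.52, 1.13 and 1.45 CPM to 31.3, 31.7 and 33.0 CPM (log2 fold change 4.47, SE 0.11). FN1, fibronectin, fell from a mean of 203 CPM to 82.1, 81.0 and 84.3 CPM (log2 fold change -1.30, SE 0.03), and ALCAM (-2.35) and the leukocyte integrin chain ITGB7 (-2.23) fell too. The epithelial marker EPCAM fell (76.6 to 27.0 CPM), while KRT8 (410 to 727 CPM, 0.83) was higher within 2-fold.

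Other signalling lists had changed members too. Of 35 axon guidance and neuronal genes 7 rose and 3 fell (20% and 8.57%, beside 3.44% and 2.68% of all well measured genes, median 0.06). DPYSL5, which acts on microtubules in growing axons, was at 0.296, 0.419 and 0.328 CPM against 25.4, 23.5 and 26.1 CPM (5.86), and PLXNA2, a semaphorin receptor, went from 4.53 to 27.7 CPM (2.59). EFNB1 (1.92) rose, and EPHB6 (-1.73) and PLXNB1 (-1.27) fell. Of 14 well measured Notch and Hedgehog genes 2 rose and 2 fell, 14.3% each beside 3.44% and 2.68% of all well measured genes. NOTCH3 (2.01 to 8.98 CPM, 2.12) and GLI1, an effector of Hedgehog signalling (1.46 to 6.35 CPM, 2.06), rose at low levels. The Notch ligand JAG2 fell from 38.8 to 9.90 CPM (-1.97), and NOTCH2 fell from 2.92 to 1.40 CPM (-1.04). NOTCH2 missed the fold rule without parental replicate 1 (-0.98) or PUHr replicate 1 (-0.88). Of 32 well measured TGF-beta and BMP genes 3 rose, GDF15 (1.14), ID2 (1.08) and LTBP1 (1.02), and 0 fell. At the adjusted p 19 were higher and 4 lower, with a median of 0.21. GDF15 without PUHr replicate 2 (0.97) and LTBP1 without PUHr replicate 1 (0.98) or parental replicate 2 (0.99) missed the fold rule. Below the well measured level ID3 (2.72 to 0.18 CPM) and ACVRL1 (2.60 to 0.50 CPM) fell. Of 37 well measured WNT genes 0 were changed, with 16 higher and 6 lower at the adjusted p, beside 27.9% and 29.5% of all well measured genes. Over all 44 tested WNT genes 2 rose and 0 fell, beside 5.37% and 4.69% of all tested genes, so that the rises are no more than that share. The receptor ROR1 was 1 of them, with 0, 0 and 1 read in parental and 150, 114 and 135 reads in PUHr libraries.

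Immune response lists had members going both ways. Of 28 well measured interferon response genes 4 rose and 4 fell (14.3% each, beside 3.44% and 2.68% of all well measured genes, median -0.12). TRIM22 was at 2.32, 2.10 and 2.02 CPM against 10.4 to 11.8 CPM (2.32), and the RNA sensor IFIH1 (2.04), HERC5 (1.62) and IFI16 (1.38) rose with it. SAMD9 was at 8.88, 8.39 and 8.25 CPM against 1.53, 1.55 and 1.65 CPM (-2.37), and IFITM2 (-1.81), SAMD9L (-1.60) and the DNA sensing adaptor STING1 (58.4 to 19.4 CPM, -1.59) fell. Of 26 NF-kB genes 2 rose, the cytokine IL6 (1.19 to 8.26 CPM, 2.71) and IL1R1, and 3 fell, the inhibitor TNFAIP3 (-2.10), ICAM1 (-1.42) and CCL2 (-1.07). Of 7 well measured antigen presentation genes 1 changed, TAP1 (-1.47), and B2M gave -0.39.

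**Figure D3:**
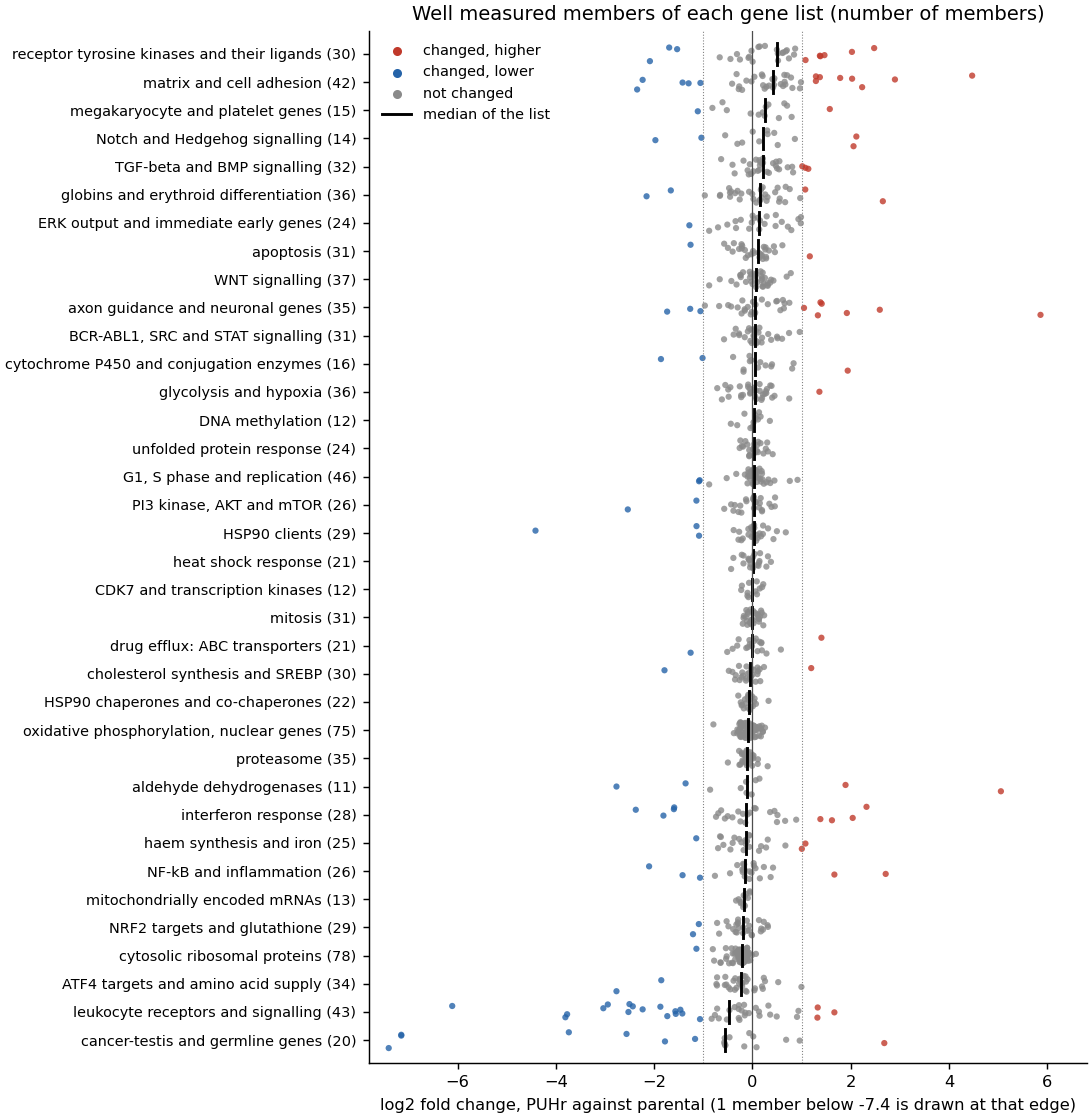
Log2 fold change of PUHr against parental cells (x axis) of the well measured members of each list with 10 or more such members (1 point a gene, black bar the median, number of members in brackets), ordered by the median. Germline (-0.56) and leukocyte (-0.47) medians lie lowest, those of receptor tyrosine kinases and ligands (0.51) and of matrix genes (0.43) highest.

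The erythroid programme of the line was kept in part. Of 36 well measured erythroid genes 2 rose and 2 fell (5.56% each, beside 3.44% and 2.68% of all well measured genes, median 0.15). Over all 41 tested members 2 rose and 6 fell, with a median of 0.02, beside 5.37% and 4.69% of all tested genes. The roles differed, with a median of -0.66 over 7 globins and 0.20 over 16 membrane genes. HBG1 (-0.97), HBG2 (-0.66) and HBD (-0.66) were lower within 2-fold, and HBZ was at -0.0033 (adjusted p = 0.96). HBB fell at a low level (1.71 to 0.24 CPM). The globin HBA2 was at 12.7, 13.4 and 11.5 CPM against 2.77, 2.47 and 3.03 CPM (log2 fold change -2.15), and since HBA1 is a near copy its reads may be split between both. PKLR, the red cell pyruvate kinase, fell (-1.66). CA2, a carbonic anhydrase, went from 9.17 to 58.2 CPM (2.65) and RHCE, of the Rh blood group, from 38.1 to 80.5 CPM (1.08). ALAS2, the first enzyme of haem synthesis in red cells, was at 127, 121 and 126 CPM against 257, 241 and 252 CPM (log2 fold change 1.01, and 0.99 without parental replicate 2 or PUHr replicate 1), and the iron exporter SLC40A1 fell from 103 to 46.7 CPM (-1.14). The transferrin receptor TFRC (1413 to 895 CPM, -0.66) and the ferritin chain FTL (1574 to 1046 CPM, -0.59) were lower within 2-fold. Of megakaryocyte genes the integrin chain ITGA2B fell (-1.11).

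Housekeeping lists moved little and mostly to lower values. Of 78 cytosolic ribosomal protein genes 73 were lower and 0 higher at the adjusted p, beside 29.5% lower over all well measured genes, with a median of -0.22. Of 13 mitochondrially encoded mRNAs 11 were lower (median -0.18), of 75 nuclear genes of oxidative phosphorylation 37 lower and 8 higher (median -0.10), and of 35 proteasome genes 23 lower and 2 higher (median -0.11). Of 34 ATF4 targets, which serve amino acid supply, 24 were lower and 5 higher (median -0.24), with SLC38A1, an amino acid carrier (-1.85). Of 29 NRF2 targets 17 were lower and 6 higher (median -0.19), with AKR1C1 (-1.21) and NQO1 (-1.09) past the fold rule. Under quantile normalization the median of mitochondrially encoded mRNAs was 0.00, and the ribosomal median stayed below 0. Across the processing choices tried, the ribosomal median lay between -0.231 and -0.122. That of nuclear oxidative phosphorylation genes lay between -0.108 and -0.0365, and that of proteasome genes between -0.126 and -0.0537. The list of G1, S phase and replication genes had a median of 0.03. Of 46 well measured members 2 fell, CDK6 and CDKN1C (-1.07), which is 4.35% beside 2.68% of all well measured genes. The call of CDKN1C was lost without parental replicate 2 (-0.98), PUHr replicate 1 (-0.81) or PUHr replicate 3 (-0.88). It was also lost without the intensity trend (adjusted p = 0.094 in limma), which leaves CDK6 alone. Mitosis genes had a median of -0.01, and of 31 mitosis genes 0 were changed. In the apoptosis list BCL2 rose (8.22 to 18.5 CPM, 1.17) and the death receptor TNFRSF10A fell (46.4 to 19.3 CPM, -1.26), while MCL1 (-0.21) was lower within 2-fold. Of cholesterol genes SQLE, squalene epoxidase, rose from 232, 237 and 235 CPM to 531, 540 and 544 CPM.

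RPS6 was the ribosomal protein gene past the fold rule. It was at a mean of 1027 CPM (SD 15, n = 3) in parental and 466 CPM (SD 7.6, n = 3) in PUHr libraries, with a log2 fold change of -1.14 (SE 0.02, adjusted p = 1.5e-14). It lies at chromosome 9, 19375715 to 19380236, minus strand (GRCh38), and its well measured neighbours on the side of the chromosome end were lower as well, namely DENND4C (-0.62), PLIN2 (-0.70), HAUS6 (61.5 to 30.8 CPM) and RRAGA (-0.82). SLC24A2, the next gene on the other side, was at 2.13 and 1.85 CPM (-0.21, adjusted p = 0.37), and MLLT3 beyond it fell (-1.99). These neighbours were looked at after the value of RPS6 was seen.

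Runs of neighbouring genes shifted together in several places. A search over windows of 20 well measured genes, with 3 or more consecutive windows whose median was 0.25 or more from 0, found 11 segments, 6 higher and 5 lower in PUHr. They held 630 of the 12275 well measured genes. The longest by gene number covered the end of the short arm of chromosome 1, from 137682 to 25568886 (GRCh38), where 186 of 215 genes were lower, 167 of them at the adjusted p, with a median of -0.43. ENO1, the glycolytic enolase, lies there and was among the largest losses in CPM (3396 to 2431, log2 fold change -0.48), and so does MTOR (-0.57). The next run, from 24745382 to 27886685, overlapped the end of the first and went the other way, with 40 of 45 genes higher and a median of 0.32. On the X chromosome the run from 2828822 to 30731462 had 50 of 60 genes higher (median 0.49), while 3 runs of the long arm were lower, with medians of -0.28, -0.25 and -0.31. Further runs were higher on chromosome 4 (median 0.37), the end of 6p (0.32), chromosome 8 (0.27) and chromosome 22 (0.28, with CRKL at 0.38), and lower on chromosome 19 (-0.28). The medians of 11645 genes outside the segments stayed near 0 (-0.0021), where 5.95% were changed, beside 9.21% within them. Of the 16 fallen leukocyte genes 1, IL2RG, lay in a segment, as did XIST, EFNB1, LINC01203 and ATXN3L on the X chromosome, CD52 and RHCE on chromosome 1, CA2 on chromosome 8 and ALDH4A1 on chromosome 1.

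The last 15 Mb of chromosome 14 hold HSP90AA1. Of 80 well measured genes there 56 had a log2 fold change above 0. At the adjusted p 38 were higher and 14 lower, and the median was 0.18, beside 0.02 for the other 310 well measured genes of the chromosome. DLK1, an imprinted Notch-like ligand, was at 158, 157 and 155 CPM against 456, 521 and 470 CPM (log2 fold change 1.62, SE 0.04), and EIF5 was higher with 0.28. The imprinted noncoding RNA MEG3 (-0.02, adjusted p = 0.33), WARS1 (-0.18) and HSP90AA1 itself (-0.13) were not, and JAG2 lies there too.

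The series also holds K562 clones in which HSP90α or HSP90β was knocked out by Cas9 and a guide, with an empty vector control, 3 libraries each. They form a separate table that shares no libraries with the one above, so that fold changes within each can be set side by side. Over the 12235 genes well measured here and tested in both, the HSP90α knockout had 3.11% changed to higher and 3.30% to lower, and the HSP90β knockout 1.28% and 1.54%. Of 393 genes that were higher in PUHr, 20.4% were higher and 26.2% lower in the HSP90α knockout, and 18.8% higher and 7.38% lower in the HSP90β knockout. Of 326 genes that were lower in PUHr, 20.6% were higher and 12.9% lower in the HSP90α knockout, and 4.91% higher and 14.4% lower in the HSP90β knockout. The overlap was not tested. HSP90AA1 fell in the HSP90α knockout (-2.96), and HSP90AB1 was lower in the HSP90β knockout (-0.55).

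Several of the genes described above differed in sign between the comparisons. ALDH1A1, up 5.06 in PUHr, was down in both knockouts (-3.78 and -3.17 for α and β), and PTPRC was down in the HSP90α knockout (-2.40). DOCK2 (1.54) and FN1 (1.26) were up in the HSP90α knockout and down in PUHr, and in the HSP90β knockout both were lower within 2-fold (-0.45 and -0.78). NR3C1 was down in PUHr and in the HSP90α knockout (-3.56), and ABCG2 was up in PUHr and in the HSP90β knockout (1.46) but down in the HSP90α knockout (-3.44). Of the genes with the largest falls in PUHr, SAGE1 (-6.65) and SLC4A7 (-4.57) also fell in the HSP90α knockout, as did MAGEA8 (-3.92), PTPN7 fell in the HSP90β knockout (-4.64), and LINC01287 fell in both (-1.56 and -1.98). LINC00958 rose in the HSP90α knockout (1.02). CTCFL (0.15 and 0.06), PRDM9 (-0.04 and -0.08), SYK (-0.37 and -0.08) and NFATC4 (-0.29 and 0.58) were within 2-fold in both.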

How the data were processed

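RNA was isolated with the Maxwell RSC simplyRNA kit, and stranded mRNA libraries were sequenced as single reads on a NextSeq550. Per the labels and the study's methods, reads were trimmed, aligned to hg38 with STAR and counted with featureCounts, and the authors used edgeR. The deposited values are log2 CPM: the authors scaled the counts to the library, added a prior count and took log2. Columns headed DSMO were taken as the DMSO group. Every value fell on whole reads within 0.1 read (100% of values), so reads and CPM without the prior were recovered. Rows without an identifier held 0.0309% to 0.0363% of reads in the 6 libraries and were left out. Gene positions come from the GENCODE annotation of GRCh38 and symbols from a table of gene names. Columns of the authors' own comparisons were not used.

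The deposited log2 CPM of genes at -1 or more in at least 3 of 6 libraries were tested with limma 3.58.1 (R 4.3.3, two-sided, intensity trend, Benjamini-Hochberg over all tested genes). A gene was changed at an adjusted p below 0.05 together with a change past 1 or -1 on the log2 scale. The scripts were tested on simulated data. Depth was 21584840 to 24477692 reads a library, at which 1 read is 0.0402 to 0.0469 CPM. A count test on the recovered reads (voom in limma) called 1032 higher and 771 lower. Intervals cover counting error only. Members, lists and tests were chosen with earlier results of these data known, and the search along chromosomes, voom scaled as deposited and the count without shifted segments after seeing the data. Genes named were, among well measured genes with separate groups, the 12 largest rises and falls with a symbol other than a clone name; the 10 largest gains and losses in mean CPM; in each list up to 4 changed members and the 2 with the highest CPM; HSP90, heat shock, ALDH1A1, ABCB1 and kinase genes of the question; and the 5 genes of highest CPM in distal 14q. Others were named after their values were seen. A few genes of the lists are not reported here.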

Additional observations from a re-analysis of the deposited data

How the results depend on the processing

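The counts of changed genes moved with the fold rule and with the treatment of low values. Without a filter 1291 genes were higher and 1206 lower, with well measured genes alone 422 and 329, with a pseudocount of 1 CPM 480 and 461, and with 5 CPM 202 and 183 (194 and 163 of the well measured). At the adjusted p alone 4221 were higher and 4259 lower, of them 3425 and 3625 well measured. Leaving out each library in turn gave 884 to 919 higher and 775 to 808 lower, and among well measured genes 411 to 431 and 322 to 342. Voom on recovered reads gave 1032 and 771, voom scaled as deposited 945 and 814, and the count without genes of shifted segments was 833 and 700. Deviations from the group means correlated at r of 0.026, 0.099 and -0.024 between same-numbered libraries, and at -0.079 to 0.064 between the other pairs. Whether the numbers pair the samples is not settled by these values. A fit with the replicate number as a block gave 887 higher and 775 lower.

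Under quantile normalization differences turned from lower to higher or to 0 for ENO1 (0.000), CANX (0.134), HSP90AB1 (0.047), ATP5F1B (0.082), HSP90AA1 (0.081), MT-CO2 (0.000), MT-CO3 (0.000) and MT-ND4 (0.000), and for CANX under voom (0.006). The cause was not tested. Values close to the fold threshold fell below it when single libraries were left out. Without PUHr replicate 1 this held for ALAS2 (0.99), LTBP1 (0.98), CEBPD (-0.88), SULT1A2 (-0.849), NOTCH2 (-0.88) and CDKN1C (-0.81). Without PUHr replicate 2 it held for GDF15 (0.97) and SULT1A2, and without PUHr replicate 3 for ALAS2 and CDKN1C. Without parental replicate 2 it held for ALAS2, LTBP1 and CDKN1C. Without parental replicate 1 it held for SULT1A2, NOTCH2 and HJV of the haem and iron list (0.93). ALAS2 fell below it under median centring. Without the intensity trend CEBPD had an adjusted p of 0.057 and CDKN1C one of 0.094 in limma. At this depth 1 read is 0.0402 to 0.0469 CPM, so that changes of genes below the well measured level rest on few reads.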
